A study of Mus musculus with 2 samples.

Results

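The genes described here are 44 genes of protein folding in the endoplasmic reticulum and of the unfolded protein response, picked by name for their function, at a time when earlier results of these data were known. All 44 were among the 23284 gene symbols listed for 2 mouse melanoma cultures. They comprise 11 chaperones and co-chaperones, 8 genes of disulfide formation, 7 prolyl isomerases, 12 stress sensors and degradation genes, and 6 genes of the translocon. B16 is a melanoma line of C57BL/6 origin, here grown in DMEM. B16/BL6 is an invasive subline of the same C57BL/6 origin, here grown in RPMI, and both media held fetal bovine serum and penicillin with streptomycin. The study searched for genes related to metastasis by comparing the cultures. Each line gave 1 library of mRNA from cells in culture dishes, with no treatment, gene change or time course named in the labels. There is therefore no replicate error behind any value, no difference was tested, and the line, the medium and the library cannot be told apart.

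Proteins that enter the secretory pathway cross the membrane of the endoplasmic reticulum through the translocon and are folded in its lumen by chaperones, disulfide isomerases and prolyl isomerases. When unfolded proteins build up, the sensors encoded by Ern1 (IRE1), Atf6 and Eif2ak3 (PERK) induce chaperone and degradation genes and slow translation. Ern1 acts by splicing the Xbp1 transcript, and that splicing cannot be read from 1 value per gene. Melanocytes and melanoma cells pass large amounts of glycoproteins, among them the melanosomal enzymes, through this compartment.

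ATF6 binds the endoplasmic reticulum stress response element together with the CCAAT-binding factor NF-Y. The element is spelled CCAAT, 9 bases of any kind and CCACG, and it was first described in chaperone promoters of this very set, so the members' share is not independent of their choice. It was searched for on both strands of RefSeq promoter windows of GRCm38.p6, from 250 bases before to 50 bases after each start site. Of the 37 members with a promoter in the table, 9 (24.3%) held it, against 37 of all 27025 genes (0.137%) and 39 of all 32851 windows (0.119%). Each match is printed below 5′ to 3′ on the strand on which it reads forward, with the fixed letters in capitals, because these are the members that share a regulatory sequence.
Hspa5 (chr2:34772025-34772043): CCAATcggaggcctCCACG
Calr (chr8:84847075-84847093): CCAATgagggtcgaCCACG
Derl3 (chr10:75893242-75893260): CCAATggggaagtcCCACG
Hsp90b1 (chr10:86705638-86705656): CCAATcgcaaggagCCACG
Hsp90b1 (chr10:86705533-86705551): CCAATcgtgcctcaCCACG
Canx (chr11:50325800-50325818): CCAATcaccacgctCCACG
Pdia6 (chr12:17266491-17266509): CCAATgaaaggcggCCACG
Dnajc3 (chr14:118937827-118937845): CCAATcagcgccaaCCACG
Creld2 (chr15:88819520-88819538): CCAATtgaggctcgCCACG
Syvn1 (chr19:6046532-6046550): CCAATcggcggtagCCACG
The 10 matches lay between 26 and 212 bases before the start site, 6 on the strand of the gene and 4 on the other. Hsp90b1 held 2 of them. A match is a description of letters and not evidence of binding.

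Related spellings were rarer among the members. The second form of the element, ATTGG, 1 base and CCACG, was in the windows of Dnajb11 and Herpud1, 2 of 37 members, against 12 of 27025 genes (0.0444%). TGACGTGG, a sequence that XBP1 and ATF6 bind, was in the window of Txndc5 alone among the 37 members, against 193 of 27025 genes (0.714%). These spellings were added after the first search. None of the 3 motifs shared bases with another inside a member's window.

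The members were among the more abundant transcripts of both libraries. The deposited unit, FPKM, is fragments per kilobase relative to the size of the library, so levels of different genes can be set side by side. In B16, 18 of the 44 members reached 100 FPKM, and in B16/BL6, 20 did. The median member stood at the 89.3rd percentile of 10709 genes in B16 and at the 90.2nd in B16/BL6. These 10709 genes are those that reached 1 FPKM in either library. The summed level of the 44 members was 6649 FPKM in B16 against 8454 in B16/BL6, or 1.33% and 1.5003% of the sum over all genes. Derl3 was listed at 0 in both libraries, which left 43 members past the minimum of 1 FPKM. The order of levels was nearly the same in both lines, with a Spearman's rho of 0.963 across the 43 members, which share both libraries and are not independent.

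**Figure D1:**
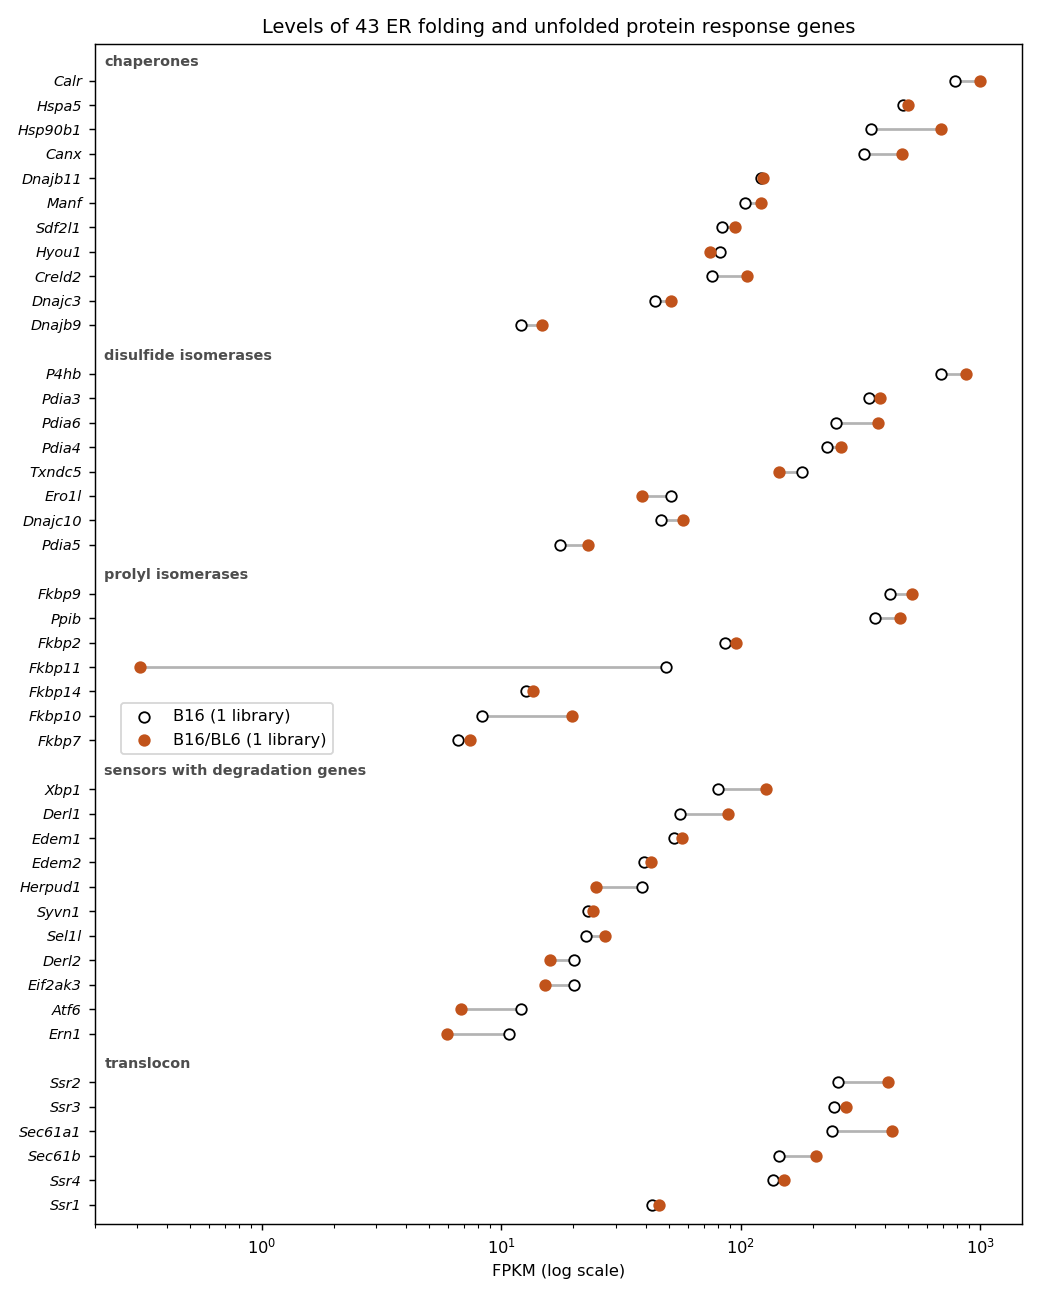
FPKM on a log scale of the 43 members above 0, in B16 (open circles) and B16/BL6 (filled circles), 1 library each, ordered within each role group by the B16 value. Fkbp11 spans 48.9 to 0.311 FPKM, and the next widest ratio is that of Fkbp10, 2.38.

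Differences are given on the log2(FPKM + 1) scale as B16/BL6 minus B16, a scale that understates the change of low genes, and a gene is counted as higher or lower from 2-fold. Of the 43 members, Fkbp10 (1 gene) was higher by at least 2-fold in B16/BL6 and Fkbp11 (1 gene) lower. Over all 10709 genes, 3.31% were at least 2-fold higher, 3.16% lower and 6.46% either. The members' 2 of 43, 4.65%, is near that background and is no result about the set. The other 41 members were within 2-fold. Their differences leaned one way: 34 of 43 members were above 0, with a median of 0.18, against 50.6% of all genes, with a median of 0.0053. The lean depends on how the libraries are scaled. With both libraries rescaled to a sum of 1000000 (the TPM scale), 22 of 43 members were above 0, with a median of 0.012, against 34.3% of all genes, with a median of -0.16.

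The level of the genes moved with this lean, and its part in it was not tested. Among all 948 genes with a mean of 100 FPKM or more, 71.8% were above 0 and the median was 0.18. Among the 19 members with such a mean, 18 were above 0, with a median of 0.34, and Txndc5 was below. Among the 16 members with a mean from 20 to 100 FPKM, 12 were above 0, with a median of 0.13, against 54.4% and 0.034 over all 3474 such genes. Among the 8 members with a lower mean, 4 were above 0 and 4 below, with a median of -0.11. Over all 6055 such genes, 45.4% were above 0, with a median of -0.041. On the TPM scale, from the highest level to the lowest, 13 of 19, 7 of 16 and 2 of 8 members were above 0. The medians of these members were 0.17, -0.037 and -0.28. Over all genes of the same levels, 51.5%, 33.9% and 31.5% were above 0, with medians of 0.0081, -0.13 and -0.20.

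**Figure D2:**
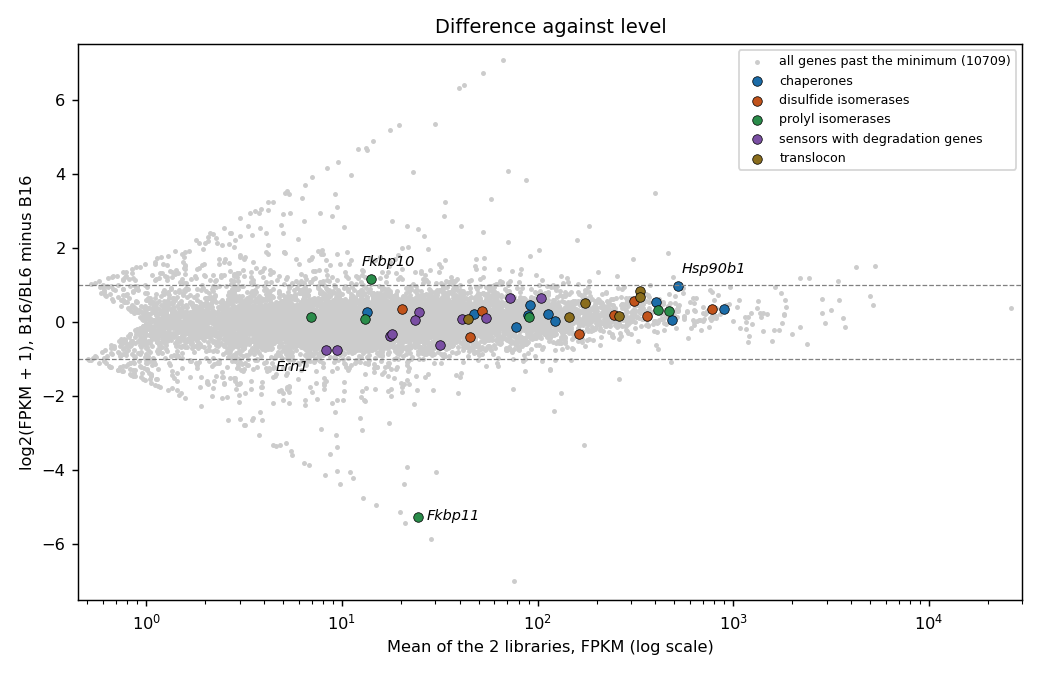
Mean of the 2 libraries in FPKM (log scale) against the log2(FPKM + 1) difference, B16/BL6 minus B16, for the members (coloured by role) and all 10709 genes past the minimum (grey), with dashed lines at 2-fold. Fkbp11 lies at -5.25 and Fkbp10 at 1.16, the other members lie within the dashed lines, and 9 genes that are no members fall outside the vertical axis.

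Chaperones were all within 2-fold. Of the 11 genes, 10 were above 0, with a median of 0.22 and a range from -0.14 to 0.97, and on the TPM scale 8 were, with a median of 0.055. Hsp90b1, which encodes the HSP90 of the endoplasmic reticulum (chr10:86690841-86705444), had the widest gap, at 350.5 FPKM in B16 against 688 in B16/BL6, a ratio of 1.96. Hspa5 (chr2:34772090-34776529) encodes BiP, the HSP70 that binds unfolded chains and holds the sensors inactive. Its level was 477 FPKM in B16 against 497 in B16/BL6, a difference of 0.059. The ratio of Hsp90b1 to Hspa5 within a library, which no scaling of the libraries can change, was 0.734 in B16 and 1.38 in B16/BL6, so their order was reversed.

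The upstream sequences of these 2 chaperone genes are given in lower case, 5′ to 3′ in the direction of the gene and up to the last base before the start site, with every match of the 3 motifs in capitals, since both carry the same element and their values differed.
Hspa5 (chr2:34771840-34772089, plus strand): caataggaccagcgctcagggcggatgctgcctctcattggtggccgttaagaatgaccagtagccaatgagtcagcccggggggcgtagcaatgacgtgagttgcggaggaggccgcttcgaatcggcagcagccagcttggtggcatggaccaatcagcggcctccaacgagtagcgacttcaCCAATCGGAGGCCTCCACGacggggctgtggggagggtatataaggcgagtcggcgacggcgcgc
Hsp90b1 (chr10:86705445-86705694, minus strand): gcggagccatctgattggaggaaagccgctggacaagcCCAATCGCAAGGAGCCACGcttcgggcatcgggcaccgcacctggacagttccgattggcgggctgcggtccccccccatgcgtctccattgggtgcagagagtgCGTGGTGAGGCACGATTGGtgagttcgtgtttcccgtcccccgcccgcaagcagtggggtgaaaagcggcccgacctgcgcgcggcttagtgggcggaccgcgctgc
Hspa5 held 1 match and Hsp90b1 held 2, the second of which reads forward on the other strand.

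The calcium-binding lectins that hold glycoproteins during folding stood at high levels. Calr, the soluble one, was the most abundant member in both libraries, at 786 FPKM in B16 against 999.8 in B16/BL6. Canx, its membrane-bound relative, was at 327 and 473 FPKM, a difference of 0.53. A pseudogene, Calr-ps, is annotated, and how reads shared with it were counted is not stated. The co-chaperones and secreted factors were lower in level. Creld2 was at 76.2 FPKM in B16 against 106 in B16/BL6, a difference of 0.47, wider than that of Calr at 0.35. Manf, a secreted stress-induced factor, was at 104.6 and 121 FPKM, and Sdf2l1, which works with the J-domain protein of Dnajb11, at 83.2 and 94.5 FPKM. Dnajb11 was at 121 and 123 FPKM, Dnajc3 at 43.8 and 51.3 FPKM, and Dnajb9, which recruits BiP to IRE1, at 12.1 and 14.8 FPKM. Hyou1, the nucleotide exchange factor of BiP, was the only chaperone below 0, at 81.6 FPKM in B16 against 74.1 in B16/BL6.

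The 8 members with the first form of the stress element and a value past the minimum were all above 0. Their differences ran from 0.059 (Hspa5) to 0.97 (Hsp90b1), with a median of 0.41. Of the 28 members with a promoter window but no match that passed the minimum, 21 were above 0, with a median of 0.15. On the TPM scale 6 of the 8 were above 0, with Hspa5 and Syvn1 below and a median of 0.24, and 11 of the 28, with a median of -0.019. Derl3, the ninth member with a match, was the one listed at 0 in both libraries. The part of the level in this was not tested, and most members with a match are also abundant. Calr, Hspa5, Hsp90b1, Canx, Pdia6 and Creld2 each reached 100 FPKM in B16/BL6. Dnajc3 and Syvn1 did not, at 51.3 and 24.2 FPKM there.

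Genes of disulfide formation were all within 2-fold. Of the 8, 6 were above 0, with a median of 0.25 and a range from -0.39 to 0.57, and on the TPM scale 5 were, with a median of 0.081. P4hb, the main protein disulfide isomerase, was at 684 FPKM in B16 against 868 in B16/BL6, second only to Calr among the members in both. Pdia6 had the largest difference of the group, 0.57, at 250.5 and 372 FPKM. Pdia3, the isomerase that works with the lectins of Calr and Canx, was at 342 and 380.0 FPKM, so the ratio of Pdia6 to Pdia3 was 0.733 in B16 and 0.98 in B16/BL6. Pdia4 was at 229 and 261 FPKM, Pdia5 at 17.6 and 22.9 FPKM, and Dnajc10, which reduces disulfides before degradation, at 46.2 and 57.5 FPKM. The 2 members below 0 were Txndc5, at 180.1 FPKM in B16 against 144 in B16/BL6, and Ero1l, the oxidase that recharges P4hb, at 51.1 and 38.6 FPKM. Txndc5 lies on chromosome 13, where the median of 376 genes was -0.32, and its own difference was -0.32.

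Prolyl isomerases held both members past 2-fold. These enzymes turn the bond before a proline, a slow step in folding, and Fkbp11 encodes one that is anchored in the membrane (chr15:98724368-98728198). Fkbp11 was at 48.9 FPKM in B16 against 0.311 in B16/BL6, which is 157 times lower. The difference was -5.25, and among the 10709 genes Fkbp11 stood at percentile 81.7 in B16 and at percentile 1.102 in B16/BL6. It passed the minimum through B16 alone, so a percentile near the bottom in B16/BL6 follows from the filter. Of all 23284 genes, 10089 were at 0 in B16/BL6. Among the members, Fkbp11 was in the middle in B16 and the lowest above 0 in B16/BL6. Read counts are not recorded in the files, so the precision of the low value, and with it of the ratio, is not known.

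The other 6 prolyl isomerases of the set were above 0, but Fkbp2, Fkbp7 and Fkbp14 were below 0 on the TPM scale, at -0.025, -0.0026 and -0.070. Fkbp2, a small luminal isomerase, was at 86.0 and 95.1 FPKM, so the ratio of Fkbp11 to Fkbp2 was 0.569 in B16 and 0.00327 in B16/BL6. Fkbp9 was the most abundant of the FKBP members, at 419.7 and 518 FPKM. Ppib, the cyclophilin of the endoplasmic reticulum, was at 364 and 460.2 FPKM. Fkbp14 was at 12.7 and 13.6 FPKM and Fkbp7 at 6.56 and 7.37 FPKM. Fkbp10, a collagen chaperone whose loss causes brittle bones (chr11:100415694-100424840), was at 8.32 FPKM in B16 against 19.8 in B16/BL6, a ratio of 2.38 and a difference of 1.16. Its exons share bases with those of Nt5c3l on the opposite strand, a gene at 58.9 and 72.1 FPKM. The library kit keeps the strand, but whether the counting used it is not stated. The group's median was 0.15, with 6 of 7 genes above 0.

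The upstream sequence of Fkbp11 is shown in the same way as those of Hspa5 and Hsp90b1, because this member differed most.
Fkbp11 (chr15:98728199-98728448, minus strand): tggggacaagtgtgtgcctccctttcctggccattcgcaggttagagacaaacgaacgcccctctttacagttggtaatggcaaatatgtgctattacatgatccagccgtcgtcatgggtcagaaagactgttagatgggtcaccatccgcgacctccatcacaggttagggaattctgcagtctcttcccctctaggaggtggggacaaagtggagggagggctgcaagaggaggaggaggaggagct
It has a GC content of 53.6%, against 62.4% for Hspa5 and 66.8% for Hsp90b1, and holds no match to the 3 motifs. The absence says only that these letters are not in this window.

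None of the 10 expressed genes nearest Fkbp11 on chromosome 15 differed by as much. Of these 5 genes on each side, 9 of 10 were within 2-fold on the log2(FPKM + 1) scale. Of the 10, 4 were above 0, and their median was -0.14. The nearest on one side was Arf3, a small GTPase gene, at 93.8 FPKM in B16 against 100.3 in B16/BL6. On the other side Rnd1 was at 1.59 and 0.411 FPKM, a difference of -0.88. Ddx23, a splicing helicase gene, was at 74.7 and 69.9 FPKM. Rhebl1, on the side of Arf3, was at 4.51 and 1.96 FPKM, a difference of -0.90. By FPKM without the pseudocount, Rnd1 and Rhebl1 were both past 2-fold lower. Cacnb3, a calcium channel subunit gene, was the neighbour past 2-fold on the log2(FPKM + 1) scale, at 7.49 and 3.20 FPKM. Fkbp10, at 1.16, was above all 10 of its neighbours, whose median was -0.12 with 4 of 10 above 0. Of these neighbours, 9 were within 2-fold. Hap1, the nearest on one side, was past 2-fold lower, at -1.71, a wider difference than that of Fkbp10. Hsp90b1, at 0.97, shared its direction with 9 of its 10 neighbours, whose median was 0.47. Timp3 alone among them exceeded it on the log2(FPKM + 1) scale, at 1.17. By FPKM without the pseudocount, the adjacent 1810014B01Rik exceeded it too. The 528 genes of chromosome 10 had a median of 0.41, and the part of the region was not tested. After the median of its own chromosome was subtracted, Hsp90b1 was at 0.56, Fkbp10 at 1.25 and Fkbp11 at -5.25. Exons of Hsp90b1 also share bases with 1810014B01Rik on the opposite strand, a gene at 2.76 and 5.64 FPKM. On the same strand they share bases with Gm15344 and Gm25745. The neighbours were named with their values known.

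**Figure D3:**
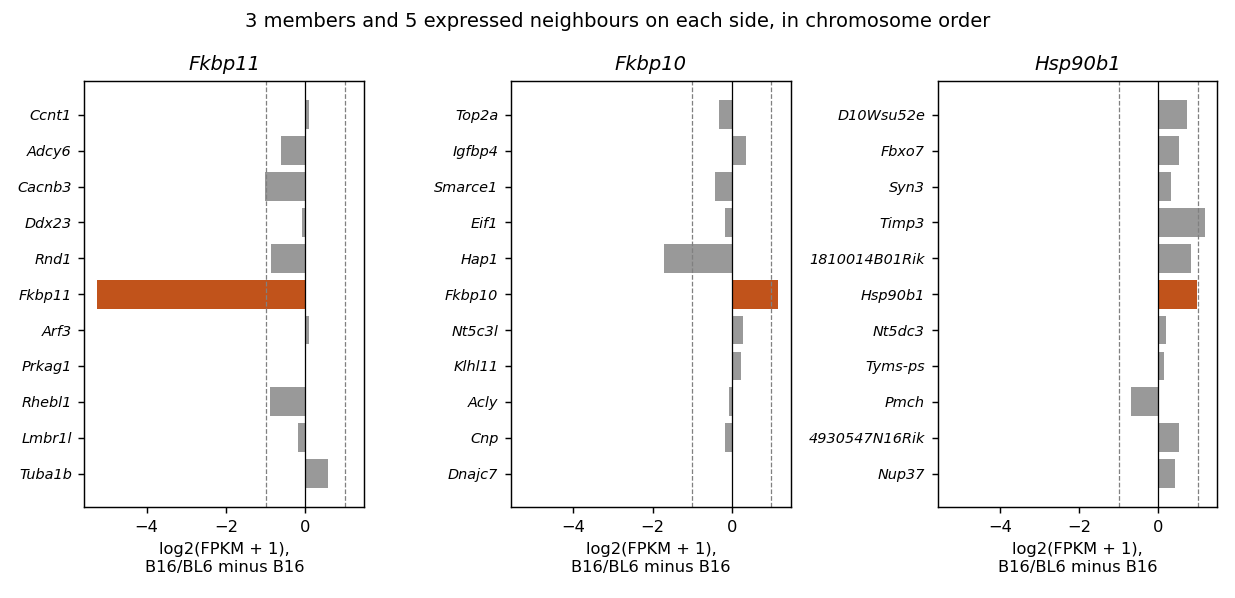
Difference in log2(FPKM + 1), B16/BL6 minus B16, of Fkbp11, Fkbp10 and Hsp90b1 (coloured bars) and of 5 neighbours on each side at 1 FPKM or more (grey bars), in chromosome order, with dashed lines at 2-fold. The bars around Fkbp11 end between -1.02 and 0.58, and 9 of 10 bars around Hsp90b1 point the same way as its own.

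The 3 stress sensors were lower in B16/BL6, each within 2-fold. Ern1 (chr11:106397620-106487796), a kinase and RNase, was at 10.7 FPKM in B16 against 5.92 in B16/BL6, a difference of -0.76. Atf6 (chr1:170704457-170868585), a membrane-bound transcription factor that is freed by cleavage, was at 12.1 and 6.78 FPKM, a difference of -0.75. Eif2ak3, the kinase that slows translation, was at 20.04 and 15.2 FPKM, a difference of -0.38. All 3 were among the lower members in level. Xbp1 (chr11:5520641-5525993), the transcription factor gene whose transcript IRE1 splices, was higher, at 80.7 and 127 FPKM, a difference of 0.65. The ratio of Xbp1 to Ern1 was 7.51 in B16 and 21.5 in B16/BL6. Neither value says how much of the Xbp1 transcript was spliced.

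Degradation genes differed in both directions. Of the 7, 5 were above 0, with a median of 0.094, and on the TPM scale 2 were, with a median of -0.073, since Edem1, Edem2 and Syvn1 changed sign. Herpud1, a stress-induced scaffold of the retrotranslocation complex, was at 38.8 FPKM in B16 against 24.9 in B16/BL6, a difference of -0.62. Syvn1, the ubiquitin ligase of that complex, was at 23.0 and 24.2 FPKM, and Sel1l, its adaptor, at 22.5 and 27.2 FPKM. Derl1 and Derl2 encode related membrane proteins of the same complex. Derl1 was at 55.8 and 88.4 FPKM, a difference of 0.65, and Derl2 at 20.2 and 15.96 FPKM, a difference of -0.32, so their ratio was 2.77 in B16 and 5.54 in B16/BL6. Edem1 and Edem2, which mark misfolded glycoproteins for removal, were at 52.4 and 57.0 FPKM and at 39.6 and 42.3 FPKM.

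Translocon genes were all above 0 as deposited, none past 2-fold, and on the TPM scale 3 of the 6 were above 0. Sec61a1, the channel subunit, was at 239 FPKM in B16 against 429 in B16/BL6, a difference of 0.84 and the third largest upward among the members. Sec61b, its small partner, was at 144.6 and 206 FPKM. The translocon-associated proteins differed less evenly. Ssr2 was at 256 and 410 FPKM, a difference of 0.68, whereas Ssr3 was at 244 and 275 FPKM, Ssr4 at 137 and 152 FPKM and Ssr1 at 42.7 and 45.5 FPKM. The ratio of Ssr2 to Ssr1 was 5.99 in B16 and 9.01 in B16/BL6. The group's median was 0.34. Sec61a1 lies on chromosome 6, with a median of 0.18 over 543 genes, and Ssr2 on chromosome 3, with a median of 0.16 over 525 genes. Ssr1 lies on chromosome 13, with a median of -0.32 over 376 genes. After the median of its own chromosome was subtracted, Ssr1 was at 0.41, Ssr2 at 0.52, Ssr3 at 0.013 and Ssr4 at 0.12. The part of the chromosomes in the uneven differences was not tested.

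Rescaling the libraries changed the sign of small differences. The sum of FPKM was 500485 in B16 and 563451 in B16/BL6, and the TPM scale sets the sums equal. The 12 members whose sign changed on that scale were Hspa5, Dnajb11, Pdia3, Fkbp2, Fkbp7, Fkbp14, Edem1, Edem2, Syvn1, Ssr1, Ssr3 and Ssr4. Of the 43 members, 31 kept their sign under all 8 alternatives tried, 22 of them above 0 and 9 below. The 9 below were Fkbp11, Ern1, Atf6, Herpud1, Ero1l, Eif2ak3, Txndc5, Derl2 and Hyou1. A change of pseudocount or of minimum cannot change a sign, so only the rescalings and centrings bear on these counts. Some signs were kept in name only. With each chromosome centred, Txndc5 was at -0.00034 and Pdia4 at 0.0054. Fkbp11 ranged from -6.90 to -3.34 over the alternatives, Ern1 from -0.96 to -0.53 and Atf6 from -0.95 to -0.54. Upward, Hsp90b1 ranged from 0.56 to 0.97, Sec61a1 from 0.66 to 0.84 and Xbp1 from 0.48 to 0.75. Fkbp10 ranged from 0.89 to 1.25 and was within 2-fold with a pseudocount of 5.

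**Figure D4:**
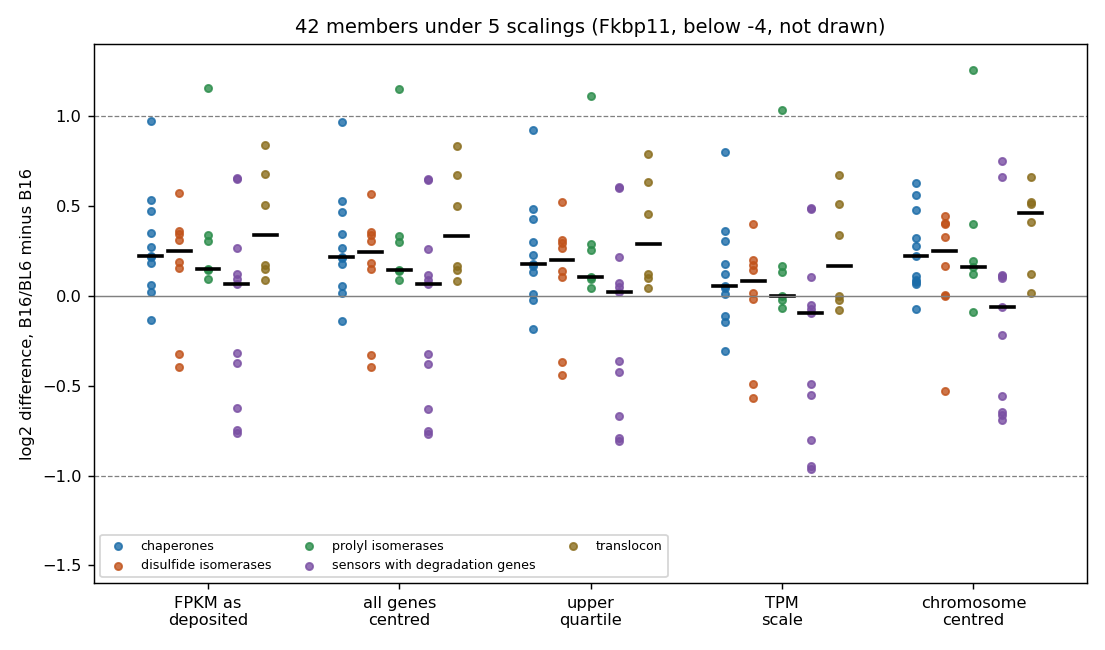
Log2 difference, B16/BL6 minus B16, of 42 members (points coloured by role; Fkbp11 is not drawn) under 5 scalings, with black bars for the median of each role group, Fkbp11 included, and dashed lines at 2-fold. On the TPM scale the medians of the role groups run from -0.098 to 0.17, lower than as deposited, and Fkbp10 is above the upper dashed line throughout.

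Other genes, of the same compartment or related to the members by function, were taken from lists picked by function. Of 11 measured oligosaccharyltransferase genes, which attach glycans to chains leaving the translocon, 10 were above 0, with a median of 0.37, or 0.20 on the TPM scale, and none was past 2-fold. Rpn1 was at 225 FPKM in B16 against 313 in B16/BL6, Dad1 at 251 and 382 FPKM, Ostc at 134 and 204 FPKM and Stt3a at 171 and 248 FPKM. Of 22 other genes of translocation and signal peptide removal, 13 were above 0, with a median of 0.076 and none past 2-fold. Among them the channel-associated gene Tram1 was at 80.4 and 138 FPKM, Srp14 at 164 and 248 FPKM, and Sil1, an exchange factor of BiP, at 20.7 and 11.3 FPKM.

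Further folding enzymes showed no common direction. Of 19 other oxidoreductases, 8 were above 0, with a median of -0.069, and 1 was at least 2-fold lower, Txndc12, at 113.5 and 54.4 FPKM. Prdx4, the peroxiredoxin of the compartment, was at 66.0 and 103 FPKM, and Qsox1 at 7.65 and 11.4 FPKM. Of 19 FKBP and cyclophilin genes outside the set, for cytosolic and other isomerases, 7 were above 0, with a median of -0.090 and none past 2-fold. Fkbp5 was at 40.5 and 29.4 FPKM and Ppic at 152 and 111 FPKM. Ppia, an abundant cytosolic cyclophilin with many processed copies in the genome, was listed at 1.03 and 0.155 FPKM, beside Actb at 1789 and 1747 FPKM. How reads of such copies were divided is not stated. Of 12 genes of collagen modification, 6 were above 0, with a median of 0.026, and Leprel1, a prolyl hydroxylase gene, was lower, at 20.6 and 4.34 FPKM. Serpinh1, the collagen chaperone HSP47, was at 565 and 990.5 FPKM, and Leprel2 at 12.8 and 17.7 FPKM.

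Genes of quality control and of the sensor branches completed the lists. Of 14 glycan trimming genes, 5 were above 0, with a median of -0.046. Man1a, a mannosidase gene, was lower, at 2.04 and 0.0446 FPKM. Os9, a lectin of degradation, was at 32.9 and 64.4 FPKM, and Lman2 at 101 and 78.2 FPKM. Of 27 other degradation genes, 15 were above 0, with a median of 0.092 and none past 2-fold. Vcp, the ATPase that extracts substrates, was at 44.9 and 52.2 FPKM, Aup1 at 242 and 376 FPKM, Ube2g1 at 18.0 and 11.3 FPKM and Rnf185 at 17.5 and 27.7 FPKM. Of 17 genes downstream of PERK or in the same response, 15 were below 0 and 4 were at least 2-fold lower, with a median of -0.42. That is 23.5% of them, against 3.16% of all genes at least 2-fold lower. Atf4, the central factor, was at 224 and 195 FPKM, and Ddit3, which encodes CHOP, at 31.6 and 23.3 FPKM. Atf3 was at 8.71 and 1.25 FPKM, Nupr1 at 8.24 and 1.57 FPKM and Trib3 at 19.5 and 6.72 FPKM. The list of the ATF6 branch and its relatives also held other stress and cell death genes. Of its 12 measured genes, 6 were above 0, with a median of 0.0072, and 1 was at least 2-fold higher. That was Wfs1, a membrane protein gene of the compartment, at 5.05 and 12.1 FPKM.

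**Figure D5:**
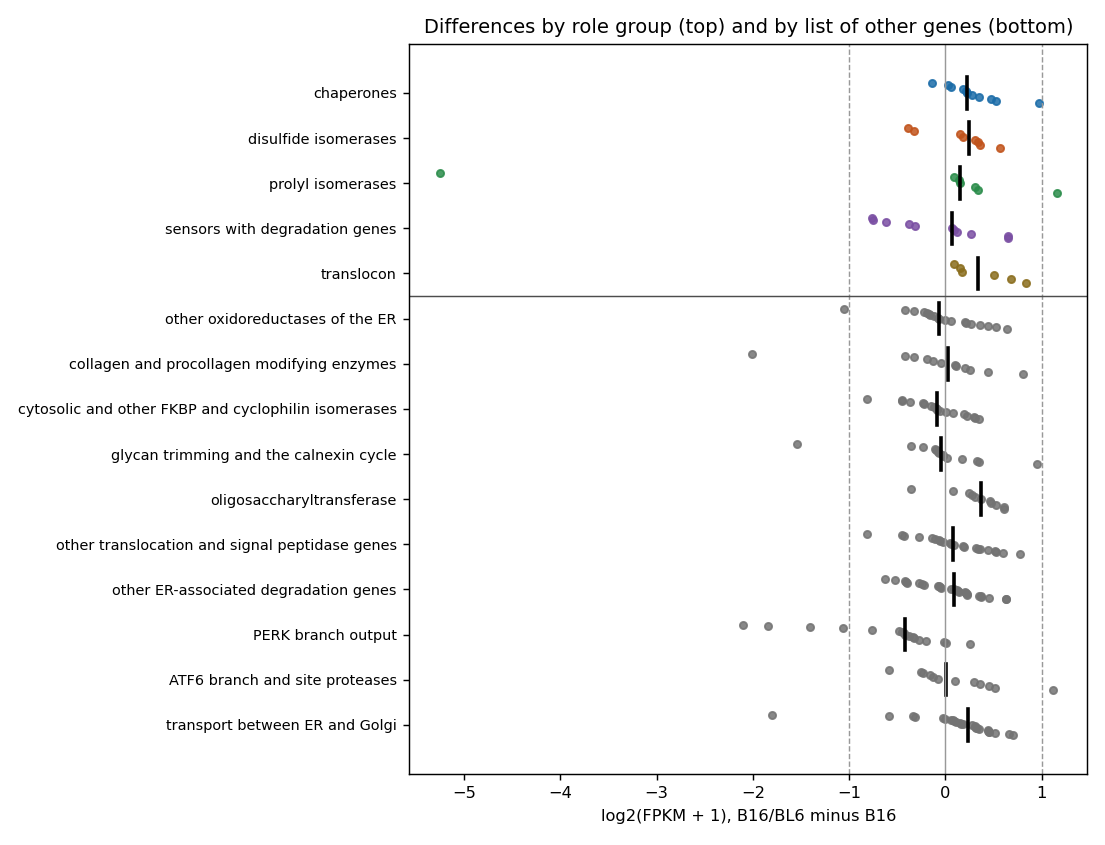
Difference in log2(FPKM + 1), B16/BL6 minus B16, of every gene past the minimum in the 5 role groups (coloured, top) and in 10 lists of other genes (grey, bottom), with black bars for medians and dashed lines at 2-fold. The medians run from -0.42 for PERK branch output to 0.37 for the oligosaccharyltransferase. The list drawn as PERK branch output holds genes downstream of PERK or in the same response. That drawn as ATF6 branch and site proteases also holds other stress and cell death genes.

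Markers of the labelled cell type were present in both libraries. The melanocyte genes Mlana, Pmel, Tyrp1 and Dct stood between 2166 and 6160 FPKM in each, and 7 of 7 lineage markers passed the minimum. Their levels differed between the libraries: the median was 0.61, and 2 of 7 were higher by 2-fold or more in B16/BL6. Tyr, the tyrosinase gene, was at 10.6 FPKM in B16 against 164 in B16/BL6, a difference of 3.83, and Pmel differed by 1.102, which is within 2-fold on the TPM scale. Mitf and Sox10, the transcription factor genes, were below 0, at -0.097 and -0.23. The summed level of the 7 was 12082 FPKM in B16 against 18525 in B16/BL6, beside the members at 6649 and 8454 FPKM, and its part in their lean was not tested. Professional secretory cells such as plasma cells also express Fkbp11, and of their 6 measured markers 5 were under 1 FPKM in both libraries, Igj and Tnfrsf17 at 0 and Sdc1 at 38.9 and 39.3 FPKM. Of 5 leukocyte markers, Cd68 alone reached 1 FPKM, at 2.83 and 1.23 FPKM. All 5 fibroblast, 4 endothelial and 4 epithelial markers were under 1 FPKM in both. The summed level of the plasma cell markers was 39.2 and 39.6 FPKM, nearly all of it from Sdc1, beside Fkbp11 at 48.9 and 0.311 FPKM. A sum that rests on 1 gene does not measure plasma cells, and its relation to Fkbp11 was not tested.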

How the data were processed

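One library of mRNA per line was sequenced after a stranded Illumina preparation, per the labels' protocols. The deposited values are FPKM, 1 per gene symbol, per the file headers. Per the submitters' processing notes, the authors' tools were Cufflinks 2.2.1, SAMtools 0.1.19, TopHat2 2.0.13 and Bowtie2 2.2.3 and the build was mm10, with no role, order or settings given. Their annotation, read counts and treatment of shared reads are not stated, and absolute depth is unknown. Among 379 genes above 0 and under 0.1 FPKM in both libraries, 155 had a B16/BL6 to B16 ratio of 0.906 within 0.5%. If equal fragments are compared there, B16/BL6 was sequenced 1.10 times deeper.

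No test was possible and no p-value is given. The 10709 genes that reached 1 FPKM in either library were used, with a pseudocount of 1 and a threshold of 2-fold. The procedure was run on simulated data with large changes in well-expressed genes. That run says nothing of low genes or of changes near 2-fold. Members and lists were chosen with earlier results of these data known. All members were named, with the 3 genes of largest difference in each list and Atf4, Ddit3, Serpinh1, Rpn1, Vcp and Actb whatever their values. Positions and promoters came from RefSeq (GRCm38.p6, the assembly of mm10), by symbol or by a synonym of a single gene. In GENCODE M21, exons of 15 members share bases with another gene, 14 of them with one on the opposite strand. For 3 members, Hsp90b1, Manf and Pdia4, a gene on the same strand is involved. Of 44 promoter windows, 37 matched a GENCODE transcript in the direction given and 0 in the other. Protein sequences were not used here. Alternatives were pseudocounts of 0.1 and 5, no minimum, a minimum of 5 FPKM, the TPM scale, upper-quartile scaling, and centring over all genes or by chromosome. Python 3.11.15, pandas 2.3.3 and numpy 2.4.6 were used.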

Additional observations from a re-analysis of the deposited data

How the results depend on the processing

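Fkbp11 stayed at least 2-fold lower under all 8 alternatives, and Fkbp10 stayed at least 2-fold higher under 7, so 0 members were higher with a pseudocount of 5. No paired analysis was possible because each line has 1 library. Over all genes, the alternatives gave 492 higher and 511 lower genes with a pseudocount of 0.1, 151 higher and 118 lower with a pseudocount of 5, 246 higher and 212 lower with a minimum of 5 FPKM and 339 higher and 535 lower on the TPM scale.

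On the TPM scale the medians were 0.012 for the members, 0.055 for chaperones, 0.081 for disulfide isomerases, -0.0026 for prolyl isomerases, -0.098 for sensors with degradation genes and 0.17 for the translocon. For the other lists they were -0.24 (oxidoreductases), -0.14 (collagen modification), -0.26 (other FKBP and cyclophilin genes), -0.22 (glycan trimming), 0.20 (oligosaccharyltransferase), -0.067 (translocation), -0.078 (degradation), -0.60 (PERK branch), -0.16 (ATF6 branch) and 0.062 (transport), and 1 gene each of the FKBP and cyclophilin and of the translocation list was lower. With each chromosome centred, the medians were -0.063 for sensors with degradation genes, 0.46 for the translocon and 0.090 for other oxidoreductases. A pseudocount of 0.1 gave 1 lower gene in the FKBP and cyclophilin list and 1 in the ATF6 list. A pseudocount of 5 gave 0 lower oxidoreductases and glycan trimming genes, 0 higher ATF6 branch genes and a median of -0.31 for the PERK branch. A minimum of 5 FPKM left 0 lower glycan trimming genes. Medians are listed where they moved by over 0.1. The cause of these changes was not tested. Unknown depth limits the low values, Fkbp11 in B16/BL6 first.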

Other observations

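Genes of transport between the endoplasmic reticulum and the Golgi leaned upward on the deposited scale. Of 26 measured genes, 20 were above 0, with a median of 0.23, and on the TPM scale 14 were, with a median of 0.062. Sec24d, a cargo adaptor of COPII vesicles, was at 18.4 FPKM in B16 against 30.6 in B16/BL6, and Tmed10, a cargo receptor, at 43.9999 and 70.4 FPKM. Kdelr3, a receptor that returns chaperones to the endoplasmic reticulum, was at 13.1 and 3.06 FPKM and was the 1 gene of the list at least 2-fold lower. Like Fkbp11 it lies on chromosome 15, where the median of 427 genes was -0.0043.

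Membrane-bound transcription factors related to ATF6 were also measured. Creb3l2 was at 40.1 and 57.7 FPKM and Creb3l1 at 1.405 and 0.597 FPKM. Regulators of secretory differentiation in plasma cells were close to 0 in both libraries, Prdm1 at 0.0184 and 0 FPKM and Irf4 at 0.0810 and 0.183 FPKM.

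Besides 8 members, 9 expressed genes held the first form of the stress element in a promoter window, and all 9 were within 2-fold. Their median difference was 0.12, with 7 of 9 above 0, or -0.030 with 4 of 9 on the TPM scale. Ero1lb, the second oxidase gene of the compartment, was at 1.33 and 1.04 FPKM, Calr4, a relative of Calr, at 0.909 and 1.71 FPKM, and Alg12, a mannosyltransferase gene of glycan assembly, at 9.502 and 9.99 FPKM. They were picked with their values known.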
